A study of Mus musculus with 24 samples.

Results

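The genes of MHC class I antigen presentation followed here, in lipopolysaccharide (LPS)-treated mouse bone marrow-derived macrophages (BMDMs), were chosen by gene symbol: *H2-K1*, *H2-D1*, *B2m*, *Tap1*, *Tap2*, *Tapbp*, *Psmb8*, *Psmb9*, *Psmb10* and *Psme2*. All 10 genes were on the array, among 16593 named genes, through 15 of its 25697 probes. Of these 15 probes, 14 were detected on all 12 arrays of each experiment and were tested. The remaining *B2m* probe, ILMN_2670561, was detected on 0 of 12 arrays in both experiments and is given no further value.

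MHC class I molecules carry short peptides made inside the cell to its surface, where CD8+ T cells read them. The peptides are cut by the proteasome, and in immune cells the catalytic subunits encoded by *Psmb8*, *Psmb9* and *Psmb10* take the place of the constitutive ones to form the immunoproteasome, while *Psme2* encodes the PA28β subunit of a proteasome activator. The transporter formed by TAP1 and TAP2 moves the peptides into the endoplasmic reticulum, where tapasin (*Tapbp*) holds empty class I molecules, built of a heavy chain (*H2-K1* or *H2-D1*) and β2-microglobulin (*B2m*), next to it. Interferons are the best known inducers of these genes, and NF-κB, which is released when the kinase IKKβ marks its inhibitor for destruction, is among the factors known to act on class I promoters.

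The study hybridised RNA to 24 arrays (Illumina MouseRef-8 v2), 12 in each of 2 separate experiments, with 3 arrays in each of 8 groups. In the IKKβ experiment, IKKβ-deficient BMDMs came from C57BL/6 mice with floxed *Ikbkb* and Mx1-Cre, an interferon-inducible Cre transgene, and wt BMDMs from mice with floxed *Ikbkb* and no Cre, each harvested after 4 h of 100 ng/ml LPS and at 0 h. In the p38 experiment, C57BL/6 BMDMs received the p38 kinase inhibitor SB202190 at 10 µM, from 2 h before LPS, or DMSO as the control, and were harvested after 4 h of LPS and at 0 h. All BMDMs were grown for 7 days in medium conditioned by L929 cells from marrow of mice 8 to 10 weeks old; the labels also name the cell line RAW264.7, which goes against this origin. The study used these arrays to look for genes that depend on both NF-κB and p38.

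*Ikbkb* followed the genotype labels: its probe read 193 to 232 in IKKβ-deficient BMDMs after 4 h and 184 to 196 at 0 h, against 601 to 791 and 323 to 471 in wt BMDMs. Of 6 macrophage marker genes on the array, 6 were detected in both experiments; of the T and NK cell markers, 2 of 9 were detected in the IKKβ experiment and 1 of 9 in the p38 experiment, of the mast cell and basophil markers 0 of 5 in both, and of the neutrophil and precursor markers 6 of 7 in the IKKβ experiment and 2 of 7 in the p38 experiment. Of 7 fibroblast markers 3 were detected in both experiments, and their summed level was 866 to 1301 at 4 h and 820 to 1140 at 0 h in IKKβ-deficient BMDMs, against 816 to 911 and 763 to 786 in wt BMDMs; at 4 h in the p38 experiment the sum was 1221 to 1270 with SB202190, against 1319 to 1922 with DMSO, and that of the neutrophil and precursor markers 964 to 990, against 1087 to 1145. The part of these markers in the comparisons of genotypes and treatments was not tested. The deposited normalized values are linear intensities, and they are given here as such, with differences on the log2 scale. In the IKKβ experiment arrays with the same replicate number lay on 1 BeadChip and deviated together from their group means (r of 0.414 to 0.926 across all probes), so differences within a BeadChip are given beside each comparison. Each group held the same position on all 3 BeadChips, so group and position cannot be told apart. A BeadChip and a preparation of cells that its arrays may have shared cannot be told apart either. In the p38 experiment the normalized and non-normalized tables did not carry the same labels: of the 12 normalized columns, 8 held the values of some non-normalized column but 1 of its own, so that the column of DMSO replicate 3 at 4 h matched the intensities named SB202190 replicate 3 at 0 h, and that of SB202190 replicate 2 at 0 h matched those named DMSO replicate 3 at 4 h. The columns that held those of none were SB202190 replicates 1 and 3 at both times, with a best rank correlation of 0.934 to 0.938. The normalized columns are used here as labelled. *Tnf*, an LPS-induced cytokine gene, read 48247 in the normalized column of DMSO replicate 3 at 4 h and 1926 in that of SB202190 replicate 2 at 0 h. These columns thus followed their times in the normalized table, and their matches carry the name of the other time in the non-normalized one. From the non-normalized intensities under their own labels, normalized by quantiles, 29 of the 70 member differences of the p38 experiment had the opposite sign and 0 passed the test. That count rests in part on the crossed columns, and each direction given for that experiment holds for the normalized table. The labels do not say whether the 3 arrays of a group came from different mice or cultures, and p-values therefore measure the spread between these arrays, which may be technical.

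The stretches upstream of *H2-K1*, *H2-D1*, *B2m*, *Tap1* and *Psmb9* are shown because all hold letters of the kind that NF-κB recognises, because the first 3 also hold letters of the kind that interferon regulatory factors recognise, and because the last 2 genes share their interval. The sequences are RefSeq's (GRCm38.p6, 5′ to 3′ on the gene's strand), and capitals mark every match, on either strand, to the κB-like motif (GGG, any 5 bases, then CC) or to the interferon regulatory factor-like motif AANNGAAA. Overlapping matches run together.
H2-K1, chr17:34000425-34000479, minus strand: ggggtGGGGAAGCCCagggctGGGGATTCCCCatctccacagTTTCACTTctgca
H2-D1, chr17:35262902-35262956, plus strand: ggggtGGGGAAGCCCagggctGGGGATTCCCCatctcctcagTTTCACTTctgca
B2m, chr2:122147495-122147575, plus strand: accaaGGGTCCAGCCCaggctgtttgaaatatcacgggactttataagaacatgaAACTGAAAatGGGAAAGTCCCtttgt
Tap1 and Psmb9, chr17:34187331-34187555, plus strand, the whole interval between the starts of the 2 genes: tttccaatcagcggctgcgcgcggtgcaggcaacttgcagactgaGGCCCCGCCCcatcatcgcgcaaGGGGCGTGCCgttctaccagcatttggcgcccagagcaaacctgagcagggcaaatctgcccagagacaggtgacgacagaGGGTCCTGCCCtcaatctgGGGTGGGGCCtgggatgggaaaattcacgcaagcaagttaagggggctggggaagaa

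The *H2-K1* and *H2-D1* stretches, 55 bases each, differed at 1 base. *Tap1* and *Psmb9* are read away from each other, and their starts lay 226 bases apart. Within the 250 bases upstream of the start, 3 of the 9 genes with an entry held both motifs (*H2-K1*, *H2-D1* and *B2m*), as did 6.89% of all 32851 windows of that length; the κB-like motif alone was in 6 of the 9 (also *Tap1*, *Psmb9* and *Psme2*) and in 45.8% of all windows, and the interferon regulatory factor-like one in the same 3 of 9 and in 21.3%. For genes with 2 listed starts the first was taken, and *Tap2* had no entry. A match describes the letters and is not evidence of binding.

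In wt BMDMs, the peptide transporter and immunoproteasome catalytic subunit genes read higher after LPS on each BeadChip, by unequal amounts. Without regard to BeadChip, 0 of the 14 member probes passed an adjusted p of 0.05 (limma, Benjamini-Hochberg over 12376 probes; 0.0162% of all probes passed), and 0 of 14 reached an unadjusted p of 0.05, which 6.95% of all probes did. With the BeadChip as a block, *Psmb8*, an immunoproteasome catalytic subunit, rose (1 of 14, against 5.73% of all probes called and 2.66% called higher), and 8 of the 14 were higher at an unadjusted p of 0.05, against 10.5% of all probes. On all 3 BeadChips 10 of the 14 were higher and 0 lower, whereas 20.3% of all probes were higher and 24.7% lower on all 3. Read by the brightest probe of each gene, 7 of 10 were higher and 0 lower. Member probes share the same arrays, and some share a gene, so such counts are not of separate observations. The median difference over the 14 probes was 0.44, against -0.02 over all probes tested.

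*Psmb8* read 892, 880 and 1701 on BeadChips 1, 2 and 3 in wt BMDMs after 4 h, against 443, 601 and 1137 at 0 h. The ranges overlapped between BeadChips, while within each BeadChip the 4 h array was the higher. The log2 difference was 0.71 ± 0.148 (SE with the block), with an adjusted p of 0.0306 with the block and 0.861 without it.

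*Tap1*, for one chain of the peptide transporter, read 1190, 1954 and 1582 in wt BMDMs after 4 h, against 302, 1163 and 1155 at 0 h. It was the 1 member probe whose 3 arrays at 4 h all lay above the 3 at 0 h in wt BMDMs; 5.87% of all probes were separated in that direction. Its difference of 1.06 gave an adjusted p of 0.0523 with the block and 0.835 without, and it ran unevenly over the BeadChips, at 1.98, 0.75 and 0.45.

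*Tap2*, its partner, read 3360, 4130 and 5501 after 4 h, against 1044, 2653 and 4641 at 0 h in wt BMDMs, a difference of 0.86 (adjusted p = 0.123 with the block). *Psmb9*, the catalytic subunit whose gene shares its upstream interval with *Tap1*, read 3698, 5562 and 7897 after 4 h, against 2334, 3782 and 6723 at 0 h (difference 0.48, adjusted p = 0.111 with the block). In both genes the 4 h array was higher on each BeadChip, and in both the groups overlapped between BeadChips. The 2 probes of *Psmb10*, the remaining catalytic subunit, gave like differences of 0.67 and 0.57 (adjusted p of 0.118 and 0.131 with the block).

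The chaperone and activator genes were less even. For *Tapbp*, probe ILMN_1226819 read 330, 561 and 1083 after 4 h, against 175, 464 and 873 at 0 h, higher on all 3 BeadChips (difference 0.50, adjusted p = 0.158 with the block), while probe ILMN_3155492 of the same gene was higher on BeadChips 1 and 3 and lower on BeadChip 2, at 1.04, 0.26 and -0.50. *Psme2* read 1745, 982 and 827 after 4 h, against 863, 901 and 806 at 0 h in wt BMDMs. Its difference was 1.02 on BeadChip 1 and 0.12 and 0.04 on the other two.

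The heavy chains and β2-microglobulin showed smaller differences. The *H2-K1* probes differed by 0.24 and 0.31, higher on all 3 BeadChips (adjusted p of 0.209 and 0.196 with the block). *H2-D1* read 2005, 1681 and 2982 after 4 h, against 1958, 1215 and 3349 at 0 h, with the 4 h array higher on BeadChips 1 and 2 and lower on BeadChip 3. The 2 detected *B2m* probes ranked between 11 and 55 from the top of the 25697 probes on every array of the IKKβ experiment, and differed by -0.18 and -0.07. *H2-K1* and *H2-D1* are close in sequence, and how far each probe also binds other class I heavy chains was not tested.

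**Figure D1:**
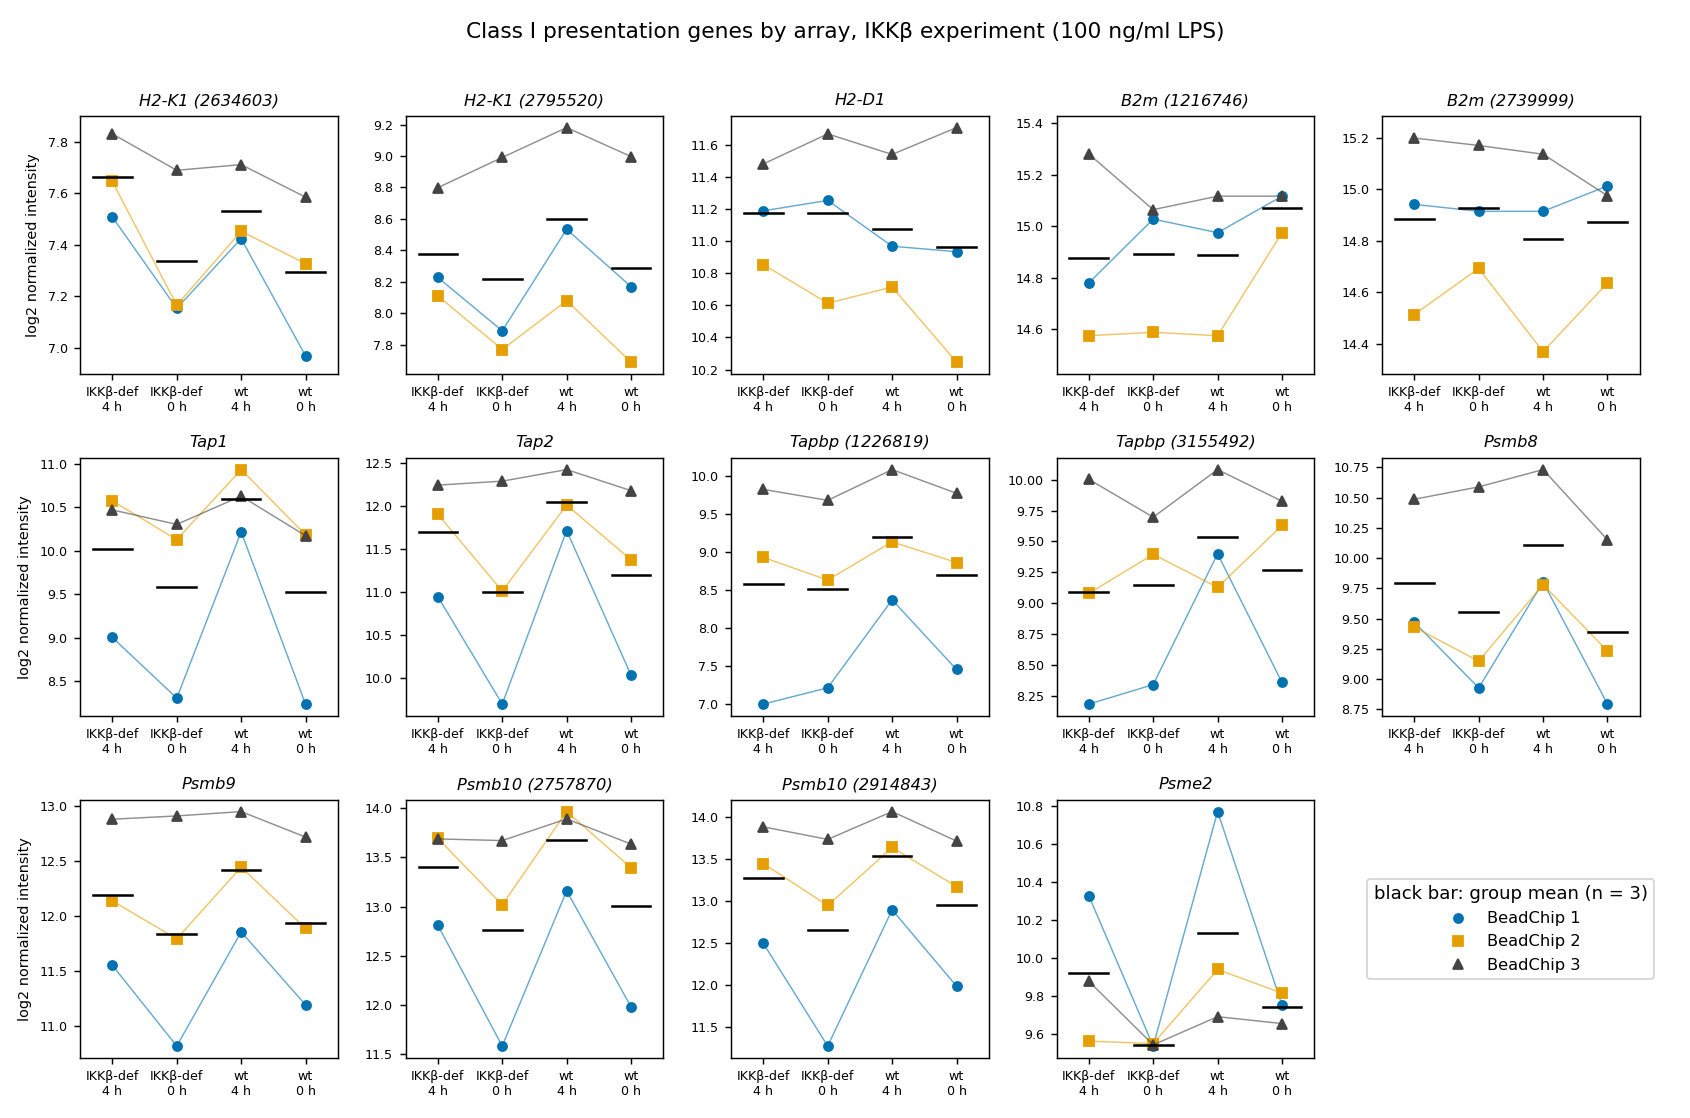
Log2 normalized intensity of the 14 tested member probes (vertical axis, a separate scale in each panel) on the 12 arrays of the IKKβ experiment, by group, with lines joining the arrays of 1 BeadChip and black bars at the group means (n = 3). In the panels of *Tap1*, *Tap2*, *Psmb9*, *Psmb10* and *Tapbp* ILMN_1226819, BeadChip 1 lies lowest in all 4 groups.

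The 3 BeadChips stood apart in these genes more than in others. Within the 4 groups the median SD over the 14 member probes was 0.554 and 0.807 in IKKβ-deficient BMDMs at 4 h and 0 h, and 0.468 and 0.748 in wt BMDMs, against 0.244, 0.273, 0.232 and 0.267 over all probes tested. At 0 h in wt BMDMs *Tap1* read 302 on BeadChip 1, against 1163 and 1155 on BeadChips 2 and 3. *Tnf*, a cytokine gene induced by LPS, read 643, 6208 and 2794 on BeadChips 1, 2 and 3 in IKKβ-deficient BMDMs at 0 h, against 415, 8719 and 4374 in wt BMDMs at 0 h. So the arrays on which *Tap1*, *Tap2*, *Psmb9* and *Psmb10* were low before LPS were also those low in *Tnf*. After 4 h *Tnf* read 10996, 14005 and 4931 in IKKβ-deficient BMDMs and 17349, 12308 and 6124 in wt BMDMs. Its rise with LPS was thus much smaller on BeadChips 2 and 3 than on BeadChip 1 in both genotypes. The part of these *Tnf* levels in the results, also in those without BeadChip 1, was not tested. Without BeadChip 1 the median difference with LPS in wt BMDMs was 0.29 over the members, with 10 of 14 higher on both remaining BeadChips, against -0.01 and 31.4% over all probes.

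In IKKβ-deficient BMDMs the members' median difference with LPS was 0.28, against -0.02 over all probes. Of the 14 probes, 0 passed an adjusted p of 0.05 with or without the block (0% of all probes without it, and 3.2% with it). With the block, 4 were higher at an unadjusted p of 0.05, against 9.72% of all probes, namely *Tap2*, both probes of *Psmb10* and 1 probe of *H2-K1* (ILMN_2634603), and 0 were without it, against 6.25%. On all 3 BeadChips 5 of 14 were higher and 0 lower, against 20% and 24.9% of all probes. By gene, 3 of 10 were higher and 0 lower.

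*Tap1* read 514, 1525 and 1418 after 4 h in IKKβ-deficient BMDMs, against 317, 1119 and 1264 at 0 h, a difference of 0.44 (adjusted p = 0.361 with the block). The groups overlapped, with the 4 h array higher on each BeadChip. *Psmb8* read 709, 689 and 1435 after 4 h, against 487, 567 and 1540 at 0 h, so that BeadChip 3 went the other way, and the difference was 0.24 (adjusted p = 0.366 with the block). *Psmb10* (ILMN_2757870) read 7192, 13259 and 13202 after 4 h, against 3069, 8299 and 13052 at 0 h. Its within-BeadChip differences were 1.23, 0.68 and 0.02, beside 1.18, 0.57 and 0.25 in wt BMDMs. *Psme2* read 1284, 756 and 941 after 4 h, against 743, 750 and 746 at 0 h, and was the 1 member probe whose 4 h arrays all lay above the 0 h ones (5.56% of all probes did).

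Set directly against wt BMDMs after 4 h of LPS, IKKβ-deficient BMDMs read lower for the transporter, tapasin and immunoproteasome catalytic subunit genes on every BeadChip. The gap was largest on BeadChip 1 for *Tap1*, *Tap2*, *Tapbp* and *Psmb10*. No member passed the test (0 of 14, against 0.00808% of all probes without the block and 0.0242% with it), and at an unadjusted p of 0.05 the counts were 0 of 14 without the block, against 1.17% of all probes, and 1 of 14 with it, against 3.05% of all probes lower at that p. On all 3 BeadChips 8 of 14 were lower and 2 higher, against 14.9% and 17.5% of all probes. Read by the brightest probe of each gene, 6 of 10 were lower and 0 higher. The members share the same arrays, and some of them move together: r among *Tap1*, *Tap2*, *Psmb9* and *Psmb10* was 0.827 to 0.967 over the 12 arrays. Others did not, and r of *Psme2* with each other member lay between -0.14 and 0.06. The count is therefore not one of separate observations. The 8 were the probes of *Tap1*, *Tap2*, *Tapbp*, *Psmb8*, *Psmb9* and *Psmb10*, and the 2 were the second *B2m* probe (ILMN_2739999) and *H2-K1* (ILMN_2634603). The median difference was -0.24 over the members and 0.01 over all probes tested.

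*Tap1* read 514, 1525 and 1418 in IKKβ-deficient BMDMs at 4 h, against 1190, 1954 and 1582 in wt BMDMs, with within-BeadChip differences of -1.21, -0.36 and -0.16 (adjusted p = 0.775 with the block). *Tapbp* (ILMN_1226819) read 128, 487 and 904, against 330, 561 and 1083 in wt BMDMs, with differences of -1.37, -0.20 and -0.26. This was the 1 member probe with an unadjusted p below 0.05 with the block (adjusted p = 0.742). *Psmb8* read 709, 689 and 1435, against 892, 880 and 1701 in wt BMDMs, and its differences of -0.33, -0.35 and -0.25 were the most even of the 8 (adjusted p = 0.775 with the block). In all 3 genes the 2 groups overlapped between BeadChips. Without BeadChip 1, 8 of 14 were lower on both remaining BeadChips, against 26.7% of all probes, and the median difference was -0.16.

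**Figure D2:**
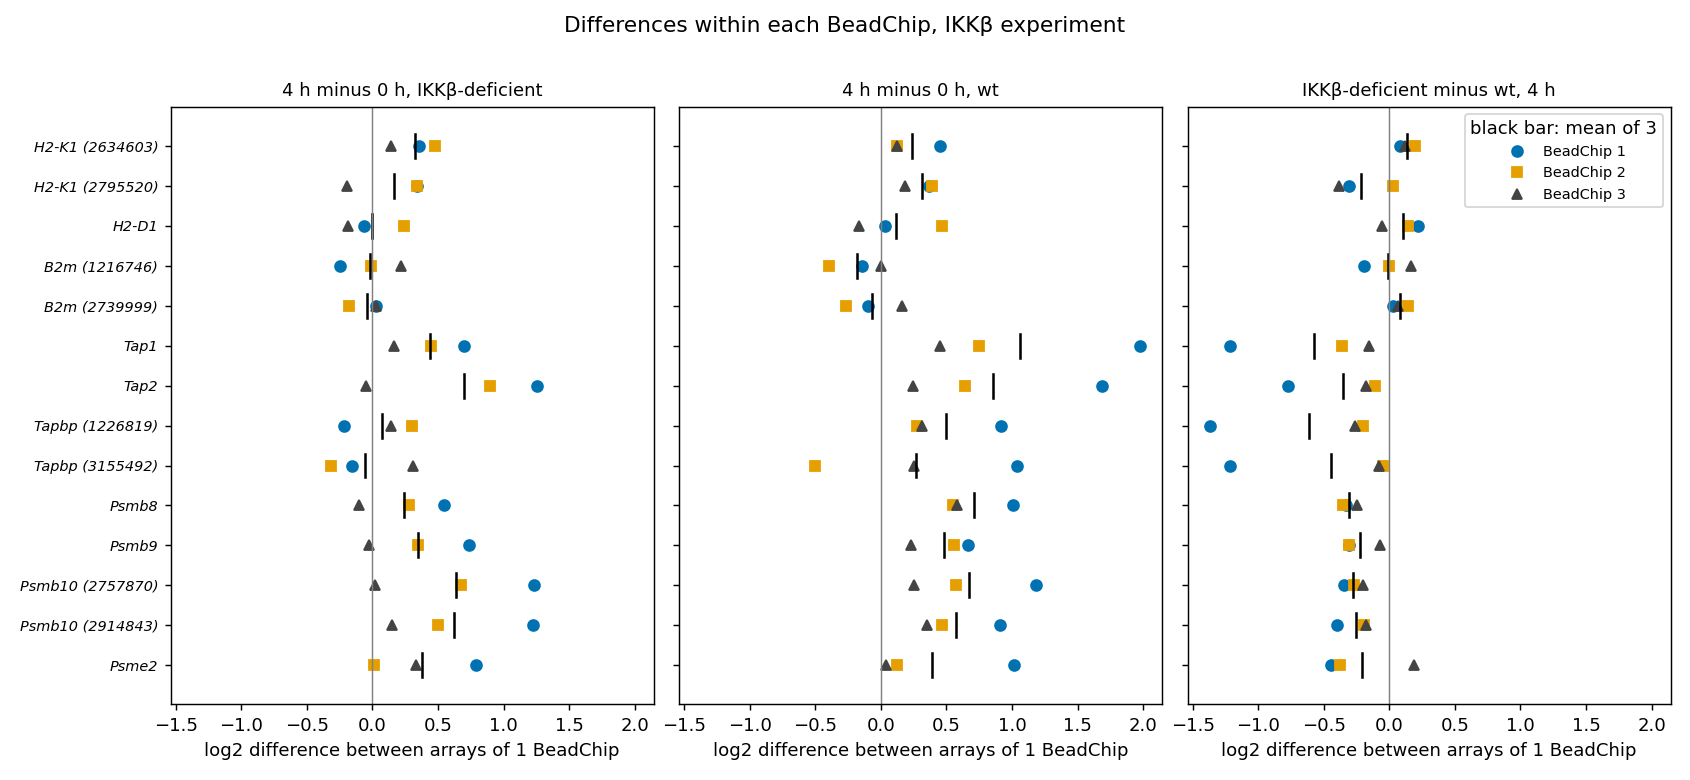
Log2 differences between arrays of the same BeadChip (horizontal axis) for the 14 tested member probes in the IKKβ experiment, for 4 h minus 0 h in IKKβ-deficient and in wt BMDMs and for IKKβ-deficient minus wt BMDMs at 4 h; symbols are the 3 BeadChips and black bars their mean. In wt BMDMs *Tap1*, *Tap2*, *Psmb8*, *Psmb9* and *Psmb10* lie right of 0 on every BeadChip, and in the comparison of genotypes they lie left of 0 on every BeadChip.

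At 0 h the genotypes were closer. Of the 14 probes 0 passed the test, with 0% of all probes called without the block and 0.00808% with it, and 0 of 14 had an unadjusted p below 0.05 in either fit, against 0.59% of all probes without the block, and 1.93% higher and 2.1% lower with it. In IKKβ-deficient BMDMs 4 of 14 were lower on all 3 BeadChips (14.7% of all probes) and 0 higher (17.4%). *Psme2* read 743, 750 and 746 in IKKβ-deficient BMDMs, against 863, 901 and 806 in wt BMDMs, and was the 1 member whose groups did not overlap at 0 h, as 1.52% of all probes did in that direction (difference -0.20, adjusted p = 0.999 with the block).

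Whether LPS moved these genes by a different amount in the 2 genotypes was tested as an interaction. No member passed (0 of 14; 0% of all probes, with and without the block), and 0 of 14 had an unadjusted p below 0.05 in either fit, against 0.339% of all probes without the block, and 1.85% higher and 1.01% lower with it. *Psmb8* had the largest difference relative to its error, at -0.47 ± 0.210 (SE) with the block (adjusted p = 1), with -0.47, -0.27 and -0.68 on the 3 BeadChips. *Tap1* gave -0.62 ± 0.376 (SE) with the block, at -1.28 on BeadChip 1 and -0.30 and -0.29 on the others. On all 3 BeadChips 4 of 14 were lower, against 14.9% of all probes, and a smaller response in IKKβ-deficient BMDMs is not shown for any single member.

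In the p38 experiment, *Tap2* stood out among the members. It read 10244, 9119 and 9987 in SB202190-treated BMDMs after 4 h, against 5986, 6187 and 6411 at 0 h, and 6527, 6824 and 7898 in DMSO-treated BMDMs after 4 h, against 4525, 7013 and 6757 at 0 h. The 3 SB202190 arrays at 4 h lay above all other arrays of the experiment. With LPS it rose in SB202190-treated BMDMs by 0.66 ± 0.166 (SE; adjusted p = 0.0348, limma over 13523 probes), the 1 of 14 member probes called there, against 8.91% of all probes called and 4.85% called higher. In DMSO-treated BMDMs the difference was 0.24 ± 0.166 (SE; adjusted p = 0.435). SB202190-treated BMDMs exceeded DMSO-treated ones at 4 h by 0.47 (adjusted p = 0.153), and the interaction of 0.42 ± 0.234 (SE) gave an adjusted p of 1, so the responses are not shown to differ.

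The call on *Tap2* rested on every SB202190 array, and the columns of SB202190 replicates 1 and 3 matched no non-normalized column. With any one of the 6 left out its adjusted p lay between 0.0909 and 0.128, and it was 0.105 without SB202190 replicate 2 at 0 h, whose column carries another name in the non-normalized table. From the non-normalized intensities under their own labels the difference was 0.11, with an adjusted p of 1. That value uses as a 0 h array the column that matched normalized DMSO replicate 3 at 4 h.

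*Tap1* read 2512, 2327 and 2332 in SB202190-treated BMDMs after 4 h, against 1896, 1937 and 1726 at 0 h, and the groups did not overlap (difference 0.37, adjusted p = 0.230). In DMSO-treated BMDMs it read 1983, 2599 and 2385 after 4 h, against 1298, 2085 and 1929 at 0 h, and the groups overlapped (difference 0.41, adjusted p = 0.189). Within each DMSO replicate number the 4 h array was the higher, by 0.61, 0.32 and 0.31. The catalytic subunit *Psmb9* read 8158, 8364 and 7974 after 4 h with SB202190, against 10396, 9100 and 10269 at 0 h, all lower (difference -0.28, adjusted p = 0.449). The non-normalized intensities under the same labels were 6051, 5397 and 10031 after 4 h, against 5288, 3787 and 7053 at 0 h, all higher within a replicate number. The 7053, however, stands in the column that matched normalized DMSO replicate 3 at 4 h, whose *Tnf* of 48247 was that of an array after LPS. With DMSO *Psmb9* read 6934, 11102 and 5941 after 4 h, against 9539, 11122 and 9045 at 0 h, a difference of -0.36 (adjusted p = 0.321). *Psme2* was lower after LPS with SB202190 (1612, 1672 and 1343 at 4 h, against 1737, 2141 and 1899 at 0 h; difference -0.32, adjusted p = 0.359), and higher by 0.29 with DMSO (adjusted p = 0.425). Its interaction was -0.61 (adjusted p = 0.951). From the non-normalized intensities, normalized by quantiles, the differences with SB202190 were 0.20 for *Tap1*, 0.34 for *Psmb9* and 0.11 for *Psme2*, and those with DMSO 0.31, -0.15 and 0.40. These differences rest in part on the columns named for the other time.

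With SB202190, 1 of 14 members had an unadjusted p below 0.05 with LPS, against 24.5% of all probes. In that comparison 3 of the 14 member probes had their 4 h arrays all above the 0 h arrays (*Tap1*, *Tap2* and *H2-K1* ILMN_2795520) and 2 all below (*Psmb9* and *Psme2*), against 24.9% and 31.4% of all probes. The SB202190 arrays lay close together: the median SD over all probes tested was 0.0843 at 4 h and 0.109 at 0 h, against 0.277 and 0.301 in the DMSO groups, and the fit pools all 4 groups. This spread is that of the normalized table, in which SB202190 replicates 1 and 3 matched no non-normalized column. When the SB202190 arrays were fitted alone, those 5 member probes passed an adjusted p of 0.05, but so did 48.5% of all probes. The members' median difference with LPS was -0.01 with SB202190 and 0.07 with DMSO, against -0.03 over all probes in both.

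With DMSO, LPS called 0 of 14 members (5.72% of all probes), and 1 of 14, *Tap1*, had an unadjusted p below 0.05, against 23.4% of all probes. DMSO replicate 2 stood apart: *Tnf* read 12183 at 4 h, against 13347 at 0 h on its arrays, while it read 49377 and 48247 at 4 h, against 908 and 1565 at 0 h, on replicates 1 and 3. Without replicate 2, *Psmb9* fell by 0.53 (adjusted p = 0.0231), 1 of 14 against 25.2% of all probes called. That fall rests in part on the column of DMSO replicate 3 at 4 h, which carries another name in the non-normalized table. There *Psmb9* read 5745 and 11387 at 4 h, against 5725 and 11432 at 0 h, on DMSO replicates 1 and 3. The 11387 stands in the column that matched normalized SB202190 replicate 2 at 0 h, whose *Tnf* read 1926. Without replicate 2 *Tap1* was higher by 0.46 (adjusted p = 0.146).

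**Figure D3:**
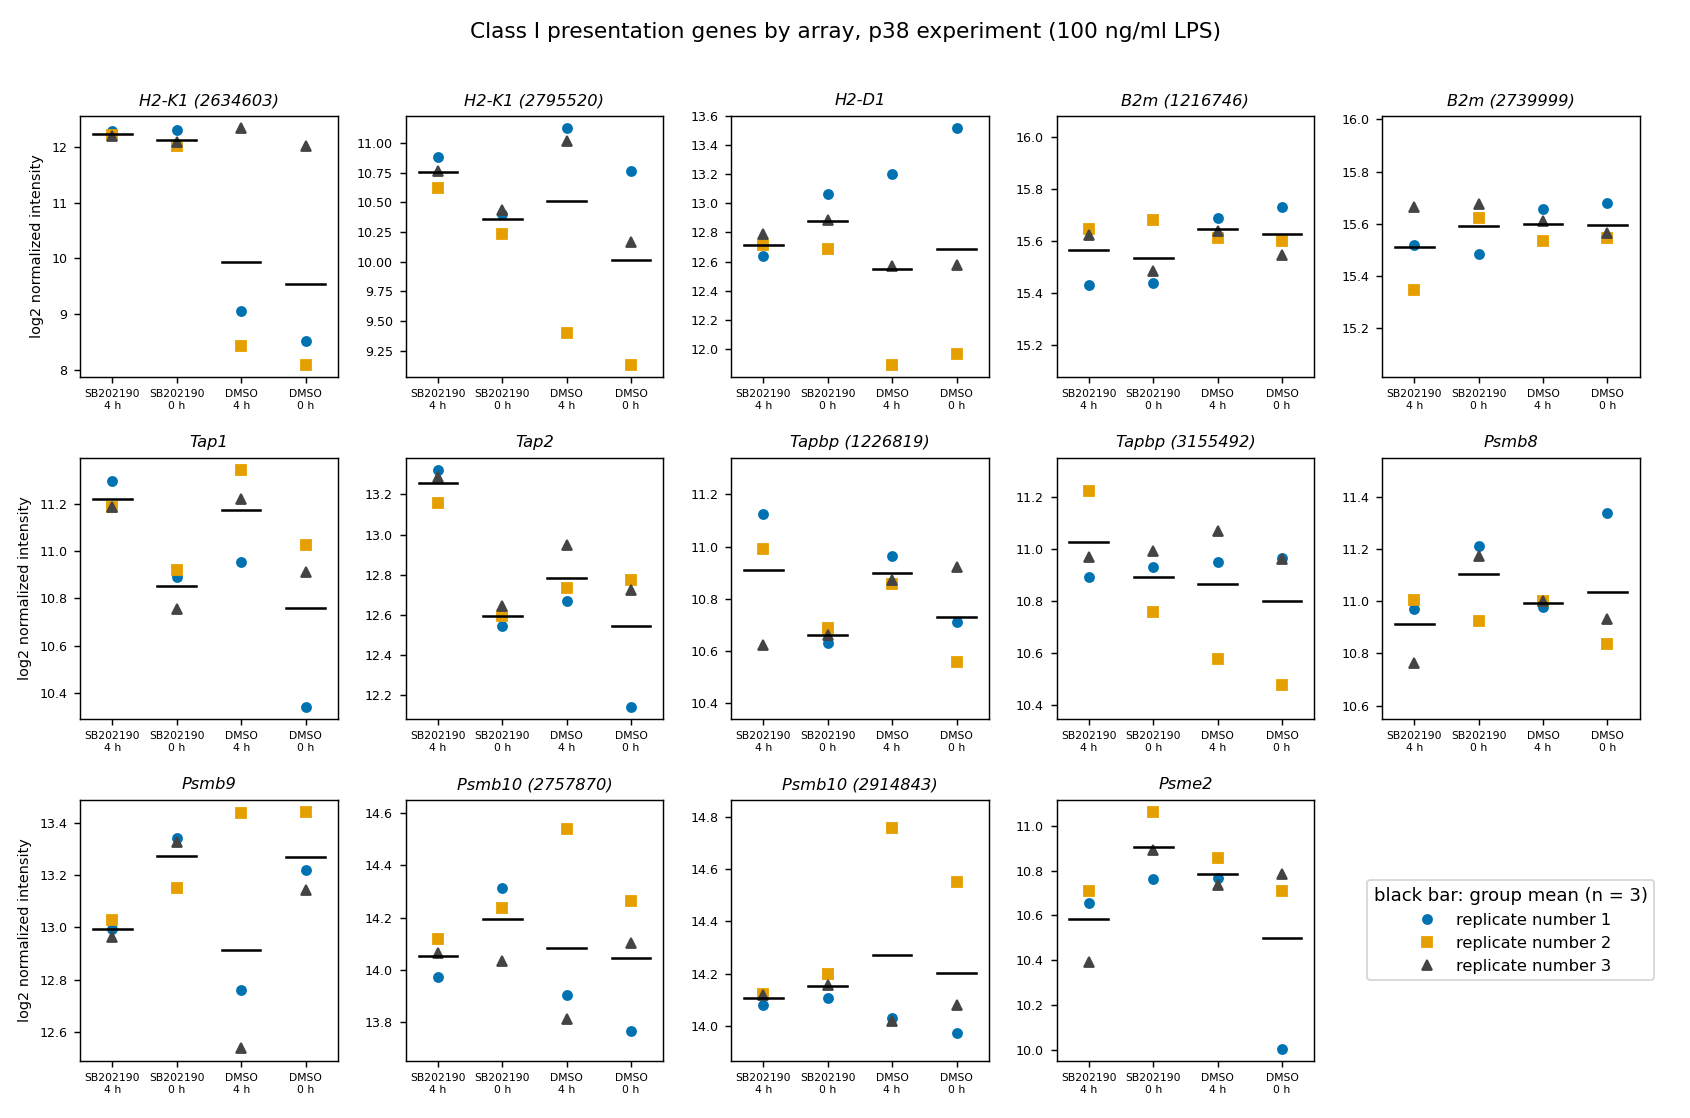
Log2 normalized intensity of the 14 tested member probes (vertical axis, a separate scale in each panel) on the 12 arrays of the p38 experiment, by group, with black bars at the group means (n = 3); equal replicate numbers do not pair SB202190 and DMSO arrays, so no lines are drawn. The SB202190 arrays at 4 h lie above all others in the *Tap2* panel, and in the *H2-K1* ILMN_2634603 panel the arrays of DMSO replicates 1 and 2 lie far below all others.

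Between treatments, 0 of 14 members passed the test at 4 h (2.63% of all probes) and 0 of 14 at 0 h (0% of all probes, while 9.79% had an unadjusted p below 0.05, as did 1 of the 14). At 4 h 1 of 14, *Tap2*, had an unadjusted p below 0.05, against 19.9% of all probes. *Tap2* was also the 1 member probe whose SB202190 arrays at 4 h all lay above the DMSO ones, and *Psme2* the 1 whose arrays all lay below, against 18.3% and 14.8% of all probes. The largest difference belonged to 1 of the 2 probes of the heavy chain gene *H2-K1*. Probe ILMN_2634603 read 4974, 4729 and 4669 in SB202190-treated BMDMs at 4 h and 5019, 4125 and 4327 at 0 h, against 532, 344 and 5187 in DMSO-treated BMDMs at 4 h and 366, 273 and 4158 at 0 h. It thus fell into a high and a low level, and the low one was read on DMSO replicates 1 and 2. The difference between treatments, 2.28 at 4 h and 2.58 at 0 h (adjusted p of 0.261 and 0.503), was -0.15 and 0.06 against DMSO replicate 3 of the same number.

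In the non-normalized table the split followed the replicate number and not the treatment. There the same probe read 5282 to 6058 on the 4 arrays named replicate 3, SB202190 and DMSO alike, and 114 to 198 on the 8 others. On the 12 arrays of the IKKβ experiment its normalized values ran from 125 to 228. The other *H2-K1* probe (ILMN_2795520) read 1887, 1577 and 1737 with SB202190 at 4 h, against 2243, 675 and 2071 with DMSO, and 560 on DMSO replicate 2 at 0 h, so that it was low on replicate 2 but not on replicate 1. The SB202190 arrays were also most like DMSO replicate 3 over all probes (r of 0.973 at 4 h and 0.990 to 0.993 at 0 h), and least like replicate 2 (0.926 to 0.927 and 0.908 to 0.912). Set against DMSO replicate 3 alone, in a fit chosen after the data were seen that takes this lone array to vary like the SB202190 ones, 1 of 14 members differed at 4 h (*Psmb9*, 0.46 higher with SB202190, adjusted p = 0.0108; 29.9% of all probes were called) and 0 of 14 at 0 h (2.46% of all probes). The 4 h column of that array is the one that matched the intensities named SB202190 replicate 3 at 0 h.

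*Psmb8*, *Psmb10*, *Tapbp*, *H2-D1* and *B2m* passed no comparison of the p38 experiment. *Psmb8* read 2006, 2057 and 1737 with SB202190 at 4 h, against 2016, 2047 and 2048 with DMSO, a difference of -0.08 ± 0.150 (SE). *H2-D1* spread over 6372 to 7071 with SB202190 at 4 h and 3798 to 9405 with DMSO, and differed by 0.16 ± 0.376 (SE). The interaction called 0 of 14 members (0.0148% of all probes), and 0 of 14 had an unadjusted p below 0.05 (5.24% of all probes).

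**Figure D4:**
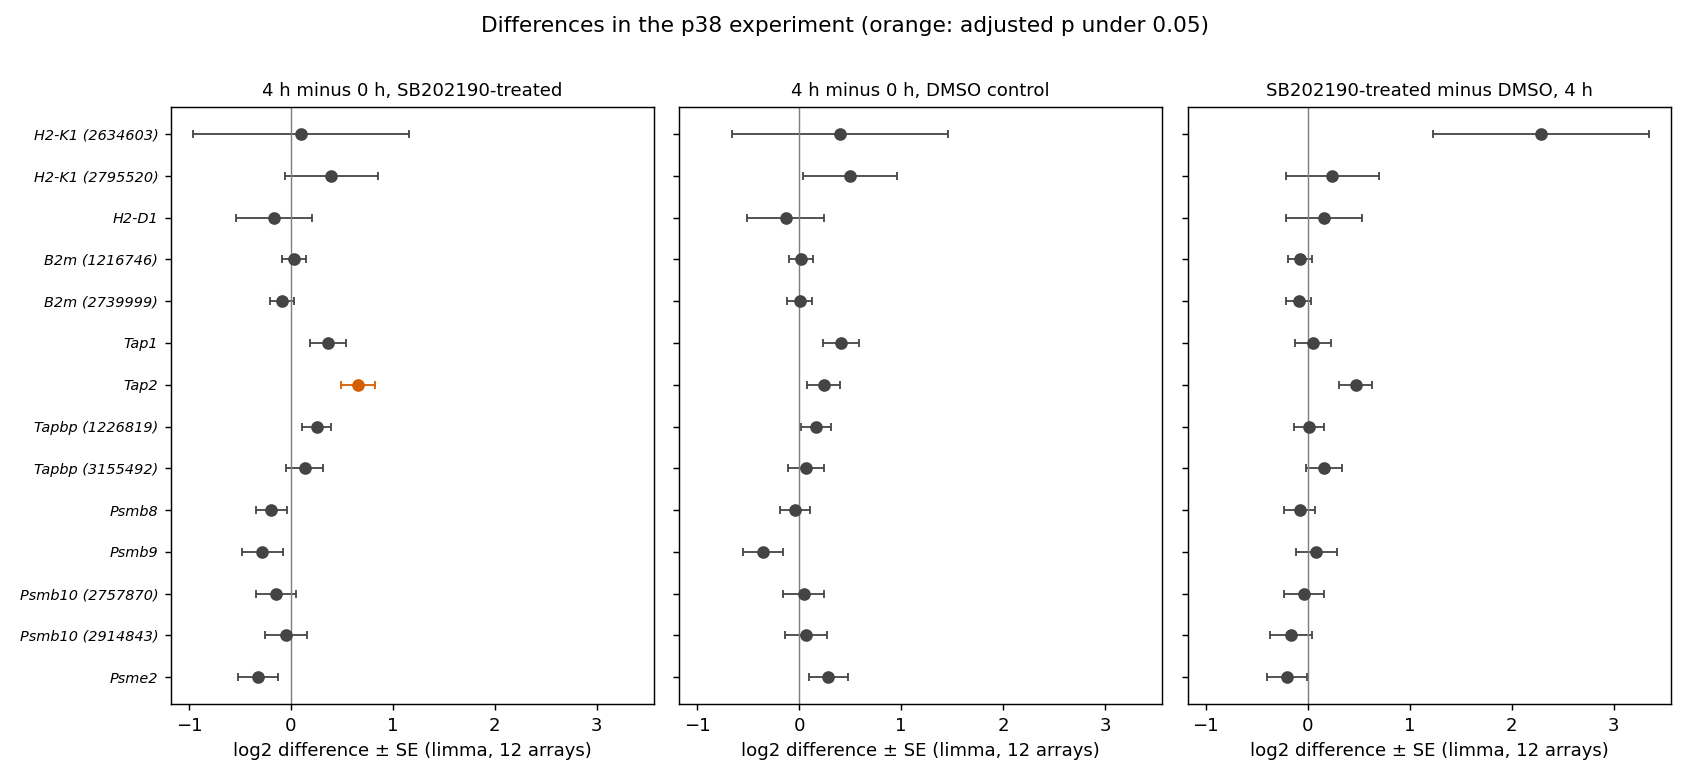
Log2 differences with their standard errors (horizontal axis, limma fit over 12 arrays) of the 14 tested member probes in the p38 experiment, for 4 h minus 0 h in SB202190-treated and in DMSO-treated BMDMs and for SB202190-treated minus DMSO-treated BMDMs at 4 h. *Tap2* with SB202190 (0.66) is the 1 value past the threshold, and the widest bars are those of *H2-K1* ILMN_2634603.

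Related genes were read from lists, with the brightest tested probe of each gene. In IKKβ-deficient BMDMs with the block, 2 of 17 transcription factors of class I genes were called higher and 0 lower with LPS, *Relb* (1.08, adjusted p = 0.0447) and *Nfkb2* (1.23, adjusted p = 0.0266), which encode NF-κB subunits; 1.76% of all probes were called higher. In wt BMDMs with the block, 3 of 17 were called higher and 0 lower: *Relb* (1.11, adjusted p = 0.0321), *Nfkb2* (1.32, adjusted p = 0.0161) and *Nfyb* (0.54, adjusted p = 0.0432), of the CCAAT-binding factor NF-Y, against 2.66% of all probes called higher. Of the interferon and TNF inputs 1 of 7 was called higher in each genotype, *Ifnar2*, a chain of the type I interferon receptor (0.88 in IKKβ-deficient BMDMs and 1.01 in wt BMDMs). Of 13 other class I heavy chain genes 1 was called lower in wt BMDMs, *Hfe*, which acts in iron balance (-0.80, adjusted p = 0.0282), against 3.07% of all probes called lower. These calls rest on the block: without it the adjusted p of *Relb*, *Nfkb2*, *Nfyb*, *Ifnar2* and *Hfe* lay between 0.273 and 0.882.

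With SB202190, LPS called 6 of 18 of these transcription factors higher and 0 lower, against 4.85% of all probes called higher, among them *Ciita*, the class II transactivator (1.97, adjusted p = 0.0102), *Irf1* (1.73, adjusted p = 0.0110) and *Rela* (0.99, adjusted p = 0.0192). With DMSO it called 1 of 18, *Relb* (1.4, adjusted p = 0.0270), against 2.77% of all probes called higher. The interaction called 0 of these 18, against 0.0148% of all probes, so the responses are not shown to differ. On DMSO replicate 2 *Tnf* read 12183 at 4 h, against 13347 at 0 h. How far these arrays lowered the number of DMSO calls was not tested. *Ciita* was also the 1 list gene that differed between treatments at 4 h (2.07 higher with SB202190, adjusted p = 0.0173), where 2.63% of all probes were called. Among peptide loading partners 1 of 9 was called with SB202190, *Tapbpl*, a relative of tapasin (0.89, adjusted p = 0.0140), against 4.85% of all probes called higher. With DMSO 0 of 9 were called, and in the interaction 0 of 9. Of the interferon and TNF inputs LPS called 3 of 7 higher with SB202190 and 2 of 7 with DMSO, and 0 lower in either. Of all probes 4.85% and 2.77% were called higher. The interaction called 0 of these 7. The heavy chain gene *H2-M2* rose in both, by 2.59 with SB202190 (adjusted p = 0.0348) and 3.45 with DMSO (adjusted p = 0.0187), while *Hfe* fell with SB202190 (-0.95, adjusted p = 0.0377). *H2-M2* is one of the genes the study itself chose from these arrays.

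The constitutive catalytic subunits that *Psmb8*, *Psmb9* and *Psmb10* replace, *Psmb5*, *Psmb6* and *Psmb7*, were called in 0 of 3 cases in every comparison of both experiments. Without the block, 0% to 8.91% of all probes were called in these comparisons. Of the other 20S core subunits, 0 of 9 were called in the IKKβ experiment (0% to 0.0162% of all probes without the block) and 0 of 10 in the p38 experiment (0% to 8.91%). With shares this low, counts of 0 do not set these genes apart from the members. Among 19 subunits of the 19S cap, *Psmd10* rose with LPS both with SB202190 (0.78, adjusted p = 0.0233) and with DMSO (0.80, adjusted p = 0.0305), and *Psmc1* fell with SB202190 (-0.65, adjusted p = 0.0465). Each was 1 of 19, against 4.85% and 2.77% of all probes called higher with SB202190 and DMSO, and 4.06% called lower with SB202190. *Psme1*, which encodes PA28α, the partner of the *Psme2* product, fell with LPS in SB202190-treated BMDMs (-0.47, adjusted p = 0.0375), 1 of 7 activator, assembly and inhibitor genes.

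The genes outside the set whose profile over 12 arrays was most like the members' mean profile were *Gm7609*, *Azi2*, *Abhd16a*, *Schip1* and *Trim56* in the IKKβ experiment, with r of 0.965 to 0.981, and *Tspan5*, *Creb3*, *Mfsd4b1*, *Pdgfrl* and *Hic2* in the p38 experiment, with r of 0.812 to 0.854. In the IKKβ experiment these 12 arrays share 3 BeadChips, so the likeness includes how the BeadChips differ.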

How the data were processed

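Total RNA of BMDMs was labelled and hybridised to Illumina MouseRef-8 v2 BeadChips. The authors read them with BeadStudio and deposited non-normalized linear intensity values, each with a detection p-value that the authors' software set from negative controls, and, for both experiments, a table of intensity values that the authors had normalized by quantiles in Partek. The normalized values were taken to log2. Probes with a detection p-value under 0.05 on at least 3 of the 12 arrays of an experiment were tested (12376 and 13523 probes). Each experiment was fitted by itself with limma 3.58.1 in R 4.3.3, on its 4 group means, and p-values were adjusted by Benjamini-Hochberg over all tested probes. Arrays of the same replicate number in the IKKβ experiment shared a BeadChip. Whether they also shared a preparation of cells is not given, and these cannot be told apart. Replicate numbers paired these arrays (same-number r of 0.414 to 0.926, other numbers -0.796 to 0.12), and the blocked fit is therefore given beside the main one. In the p38 experiment they did not pair treatments (-0.0677 to 0.0578), and within a treatment r was 0.0563 to 0.0949 for SB202190 and 0.536 to 0.594 for DMSO. The fit without the block was tested on simulated data with independent noise and no BeadChip effect, which does not cover the blocked fit. Symbols come from GEO's platform table; every member was named by each of its probes, up to 3 genes of a list by smallest p, and 5 most alike genes by r. The members and lists were chosen with earlier results of these data known. Detected probes numbered 10050 to 11511 per array in the IKKβ experiment and 11038 to 12508 in the p38 experiment, and 3 arrays a group limit the precision. Fewer cells of a kind and less RNA per cell cannot be told apart in such bulk RNA. Alternatives covered normalization, filter, pseudocount, array weights, the methods' t-test and arrays left out.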

Additional observations from a re-analysis of the deposited data

How the results depend on the processing

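With the BeadChip as replicate block, LPS in wt BMDMs called 1 of 14 member probes, and all probes called went to 709, against 2 without the block; in IKKβ-deficient BMDMs they went to 396, against 0. The block changed no other member call. The methods' t-test without adjustment called 1 of 14 at 0 h between genotypes (1.37% of all probes) and 1 of 14 between SB202190 and DMSO at 4 h (20.3%). For LPS with SB202190, the non-normalized intensities normalized by quantiles, by median scaling or after normexp called 0 each, array weights 4 of 14 (47.1% of all probes), the 2 groups alone 5 (48.5%), and the methods' t-test 4 with Benjamini-Hochberg adjustment (35.1%) and 4 without it (47.1%), and between 0 and 1 were called with replicates left out. With replicates left out, LPS with DMSO called between 0 and 1 (1 without replicate 2; *Tap1*, 0.54, adjusted p = 0.0454, without DMSO replicate 2 at 0 h; *Psmb9*, -0.62, adjusted p = 0.0167, without DMSO replicate 2 at 4 h), and SB202190 against DMSO between 0 and 1 at both times (*H2-K1* ILMN_2634603 without replicate 3, 3.85 at 0 h and 3.5 at 4 h). Against DMSO replicate 3 alone 1 was called at 4 h. Among the member differences with an unadjusted p below 0.05 with or without the block, these turned sign. SB202190 against DMSO at 4 h gave, for *H2-K1* ILMN_2634603, -0.044 by quantiles, -0.088 by median scaling and -0.072 after normexp from the non-normalized intensities, and -0.12 against DMSO replicate 3 alone. With arrays left out, *Tapbp* ILMN_1226819 ran from -0.12 to 1.04 for LPS in wt BMDMs and from -1.23 to 0.18 between genotypes at 4 h, and *Psmb10* ILMN_2914843 from -0.065 to 1.16 for LPS in IKKβ-deficient BMDMs, each turning without 1 array of BeadChip 1. Of 70 member differences of the IKKβ experiment, 70 kept their direction with quantile normalization, normexp, no filter, a pseudocount of 16 and array weights, 57 with median scaling, 59, 62 and 67 without BeadChip 1, 2 and 3, and 53 to 66 without 1 array. Of 70 in the p38 experiment, 41 kept theirs from the non-normalized intensities, whose labels differ, by quantiles and after normexp, 42 by median scaling, 57, 54 and 59 without replicate 1, 2 and 3, and 57 to 70 without 1 array. The causes were not tested. Signals of the *B2m* probes near the top of the scale and 3 arrays a group limit what could be seen.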
